A study of Drosophila melanogaster with 2 samples.

Results

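The peaks described here are the promoter-proximal peaks of tagged fd102C, a fork head domain protein. Their summits lay more than 100 and up to 1000 bp from the nearest annotated transcript start. Whether these peaks are sites of direct binding was not tested. Within the thresholded list they were chosen by the position of the summit. Of the peaks that passed the authors' reproducibility threshold, 649 met the rule (32.0%) and the remaining 1382 did not. Of the 649, 486 lay upstream of their nearest start and 163 downstream. The assay was ChIP-seq, the sequencing of chromatin precipitated with a protein, on whole embryos of Drosophila melanogaster, males and females pooled, from the fd102C-GFP strain. That strain stably carries fd102C with GFP joined to its C-terminal end. Embryos were 2 to 6 h old by the source name, while the age field holds a number of hours that no embryo reaches. There were 2 biological replicates in 1 group, so conditions cannot be compared and no test over samples is possible, and untagged embryos were not analysed here.

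The promoter or copy number behind the tagged protein is not given in the sources used here, and whole embryos mix all cell types. A label field describes both samples as an input control, whereas title, assay and antibody fields name a transcription factor ChIP. The values are the authors' peak lists: 30000 peaks for each replicate, and the thresholded list called on the pooled replicates. Peak signal is the authors' own value, on a scale that is not stated, and serves only to describe and rank peaks. Read depth is unknown because the lists carry peaks and no reads. Intervals below are 95% Wilson intervals over peaks, or Newcombe intervals for a difference of shares. They cover counting error over peaks, which are not replicates. The corresponding value in each replicate alone, taking as many of its highest peaks as the thresholded list holds, is given for the main shares as a measure of spread.

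A promoter consists of the start itself, where RNA polymerase is placed, and flanking DNA where sequence-specific factors bind. In the compact fly genome much of this regulatory DNA lies within a short distance of the start, and genes on opposite strands often share the interval between their starts. Fork head proteins bind DNA through a winged helix domain, and many family members recognise a short A and T rich core.

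Sequences around 5 upstream summits are shown because they carry the fork head motif close to the point of strongest signal. They are the upstream peaks with the highest signal that had a match within 50 bp of the summit and held no UTR base. Peaks on a chromosome arm named under the processing below were left out of this choice, whatever their signal. Each run covers 121 bases of dm6 centred on the summit, 5′ to 3′ on the strand of the gene with the nearest start. Capitals mark RTAAAYA on either strand, where R is A or G and Y is C or T.
ph-p upstream, chrX:2137293-2137413, minus strand: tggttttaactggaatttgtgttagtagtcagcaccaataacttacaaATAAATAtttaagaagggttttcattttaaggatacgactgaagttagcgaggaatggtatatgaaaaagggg
Art3 upstream, chr3R:15229469-15229589, minus strand: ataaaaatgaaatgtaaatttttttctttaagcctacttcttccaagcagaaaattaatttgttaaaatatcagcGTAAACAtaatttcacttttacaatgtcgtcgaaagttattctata
Lk6 upstream, chr3R:11761004-11761124, minus strand: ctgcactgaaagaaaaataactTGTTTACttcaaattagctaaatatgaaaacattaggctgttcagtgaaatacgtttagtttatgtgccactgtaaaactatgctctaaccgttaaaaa
InR upstream, chr3R:21590806-21590926, minus strand: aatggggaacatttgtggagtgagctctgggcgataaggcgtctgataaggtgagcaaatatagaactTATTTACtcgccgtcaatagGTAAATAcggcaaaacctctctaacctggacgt
RasGAP1 upstream, chr3L:9855900-9856020, minus strand: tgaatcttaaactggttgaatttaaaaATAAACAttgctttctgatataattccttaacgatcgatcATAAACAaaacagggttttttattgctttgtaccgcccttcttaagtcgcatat

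The same choice among downstream peaks gave 5 windows, shown with the same capitals so that both sides of the start can be compared. The genes with known products in these sets are ph-p (a Polycomb group protein), Art3 (an arginine methyltransferase), Lk6 (a protein kinase), InR (the insulin receptor), RasGAP1 (a Ras GTPase activator) and mub (an RNA-binding protein).
CG9663 downstream, chr2L:3302130-3302250, minus strand: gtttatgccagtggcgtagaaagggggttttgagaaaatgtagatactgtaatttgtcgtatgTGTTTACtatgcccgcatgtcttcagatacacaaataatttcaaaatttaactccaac
CG31635 downstream, chr2L:6647194-6647314, minus strand: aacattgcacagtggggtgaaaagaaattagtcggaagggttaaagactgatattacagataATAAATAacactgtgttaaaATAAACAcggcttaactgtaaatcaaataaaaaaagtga
mub downstream, chr3L:21880424-21880544, plus strand: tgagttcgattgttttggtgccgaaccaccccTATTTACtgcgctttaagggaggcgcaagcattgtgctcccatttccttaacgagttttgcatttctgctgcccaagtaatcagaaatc
lncRNA:CR45940 downstream, chr3L:19033268-19033388, minus strand: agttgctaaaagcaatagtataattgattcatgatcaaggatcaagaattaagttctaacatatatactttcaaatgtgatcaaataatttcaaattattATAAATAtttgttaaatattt
lncRNA:CR45757 downstream, chr3L:21961968-21962088, plus strand: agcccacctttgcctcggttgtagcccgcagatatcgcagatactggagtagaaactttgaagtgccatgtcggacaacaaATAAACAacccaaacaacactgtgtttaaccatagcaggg

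A further pair shows the upstream and the downstream peak with the highest signal that held the motif of DREF, a factor of replication and housekeeping gene promoters, under the same limits. Capitals mark that motif. Svil encodes a supervillin family protein, and Stt3A a subunit of the oligosaccharyltransferase.
Svil upstream, chr3L:2493954-2494074, plus strand: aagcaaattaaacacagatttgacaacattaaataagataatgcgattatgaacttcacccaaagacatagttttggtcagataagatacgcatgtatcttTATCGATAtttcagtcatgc
Stt3A downstream, chrX:21053221-21053341, minus strand: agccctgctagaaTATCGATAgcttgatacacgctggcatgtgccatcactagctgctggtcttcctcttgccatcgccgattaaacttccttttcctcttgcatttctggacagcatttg

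Upstream summits were more frequent than the sequence available to them. They made up 74.9% of the 649 peaks (interval 71.4 to 78.1%), while 42.2% of the known bases in that range of distances lay upstream. The upstream share was 73.0% in replicate 1 and 73.7% in replicate 2. Density was 42.3 peaks per Mb upstream and 10.4 downstream, a ratio of 4.08. Among the 7395 pooled promoter-proximal peaks outside the thresholded list, 3699 were upstream and 3696 downstream. Among the 649 of these with the highest signal, the upstream share was 60.7% (56.9 to 64.4%). By arm, the upstream share ran from 67.7% of 124 peaks on 2R to 81.5% of 157 on 3R, leaving out chromosome 4 with 5 peaks.

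The 2 sides also differed in distance. The median upstream distance was 227 bp (quartiles 142 and 433), and 63.2% of upstream peaks lay within 300 bp, which holds 29.2% of upstream bases. The median downstream distance was 479 bp (quartiles 220 and 721), and 29.4% of downstream peaks lay within 300 bp, which holds 25.5% of downstream bases. That share was 63.7% and 63.0% upstream in replicates 1 and 2, and 31.8% and 30.5% downstream. Upstream density fell from 111 peaks per Mb between 100 and 200 bp to 69.5 between 200 and 300 bp and 31.2 between 300 and 400 bp. Downstream it was 18.5 peaks per Mb between 100 and 200 bp, 5.13 between 200 and 300 bp and 13.3 between 400 and 500 bp. Core promoter peaks, within 100 bp of a start, reached 124 per Mb on the upstream side and 73.8 on the downstream side.

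**Figure D1:**
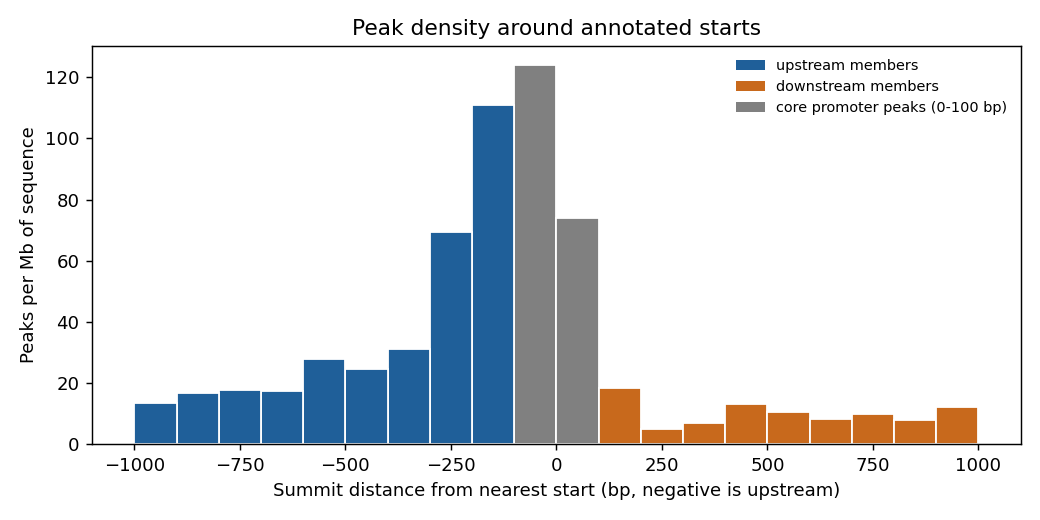
Peaks per Mb of sequence in bins of 100 bp of summit distance from the nearest start, negative values upstream; blue and orange bars are the promoter-proximal peaks and grey bars the core promoter peaks. Blue bars fall from 111 beside the core promoter to 13.6 between 900 and 1000 bp, while orange bars stay between 5.13 and 18.5.

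At the edges of the rule, the upstream peaks just inside the near limit were those of lncRNA:CR44331 (signal 231), mRpL4 (155) and sei (153), all 1 bp beyond 100 bp. The nearest upstream peaks outside it, all at 100 bp, were betaggt-I (244), blw (196) and larp (131). Downstream, Tom at the same distance had a signal of 180 and kermit at 102 bp a signal of 199, while CG32075, Apc and hyx at 100 bp had 158, 150 and 130. At the far edge, RabGGTa at 992 bp upstream had 173 and Src64B at 1002 bp upstream 141. Crumbs (crb), a determinant of epithelial polarity, at 993 bp downstream had 206, and CG43131 at 1001 bp downstream 294.

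Most summits had a counterpart nearby in both replicates. Of the 649 peaks, 622 (95.8%) were matched by summits 100 bp away or less in each of the replicates, and the median gap between the replicate summits was 21.5 bp. The gap was 10 bp or less for 185 of the 622 (29.7%). Side and distance class were the same in both replicates for 544 (83.8%, 80.8 to 86.5%). In 67 (10.3%) a replicate summit moved to within 100 bp of a start. Such moves were 58 of 486 upstream and 9 of 163 downstream. The Spearman correlation of replicate signals was 0.734 over 622 peaks, given as a description because both replicates helped choose these peaks.

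**Figure D2:**
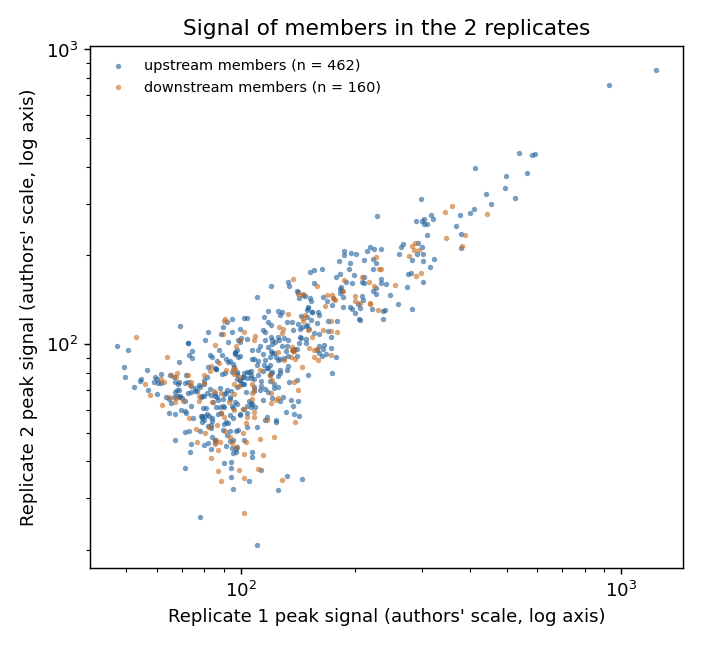
Peak signal in replicate 1 against replicate 2 on log axes, in the authors' units, 1 point for each promoter-proximal peak found in both (462 upstream, blue; 160 downstream, orange). The peaks of px and ph-p stand at the upper right, and the points scatter more at low signal.

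Pooled signal overlapped between the sides through most of its range. The upstream median was 192 (quartiles 153 and 280) and the downstream median 184 (149 and 280), against 164 for core promoter, 187 for intronic and 182 for intergenic peaks. The highest upstream signal was 2068 and the highest downstream signal 710. Of the 100 peaks with the highest signal, 34 were upstream and 9 downstream promoter-proximal peaks. In 4 equal parts of the thresholded list, from the highest signal to the lowest, promoter-proximal peaks made up 36.8%, 33.5%, 30.9% and 26.6%. The upstream share of them was 73.8%, 80.0%, 72.0% and 73.3% in these parts, so it did not rise steadily with signal.

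**Figure D3:**
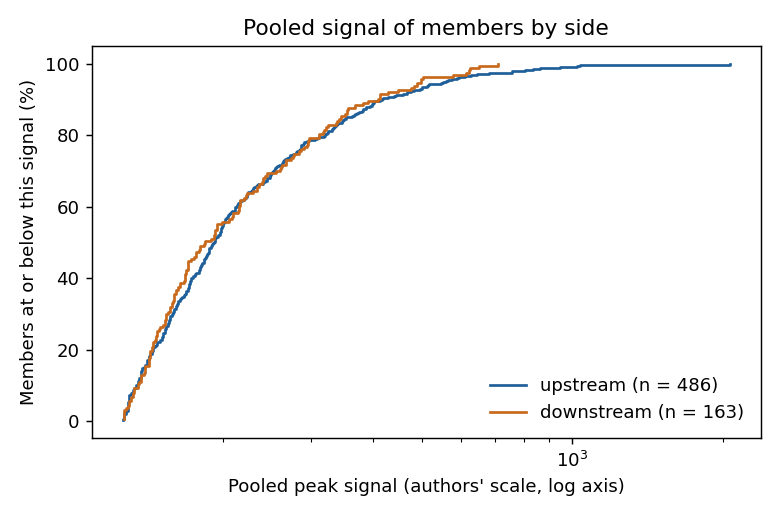
Cumulative share of promoter-proximal peaks at or below a pooled signal (log axis, authors' units) for 486 upstream and 163 downstream peaks. The curves run together around their medians of 192 and 184, and the upstream curve continues to 2068 beyond the downstream maximum of 710.

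The upstream peak with the highest signal was that of px, a gene known for patterning the wing veins, 205 bp upstream of a start. It had a signal of 1230 in replicate 1 and 854 in replicate 2 and ranked first in both. The ph-p peak, 498 bp upstream and inside an annotated intron, had 930 in replicate 1 and 758 in replicate 2 and ranked second in both. Both stood well above the next upstream peak, at CG13921, with 592 and 442. Art3, 121 bp upstream in a divergent interval shared with mRpS10, a mitochondrial ribosomal protein gene, had 583 and 437. Chro, which encodes the chromodomain protein Chromator, had 564 and 382, with the pooled summit 106 bp upstream. In both replicates the Chro summit lay within 100 bp of a start. The partner of Chro on the opposite strand was Ssl1, a subunit of the general factor TFIIH. CG14100 had 538 and 445, and its summit in replicate 1 lay within 100 bp of a start. The others of the first 12 upstream were Lk6, CG1888, NimC4 (a receptor for apoptotic cells), sp3, gish (a casein kinase) and lncRNA:CR44339, with pooled signals from 863 down to 756.

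Downstream, 5 of the 12 peaks with the highest signal had a long noncoding RNA as their nearest gene. Of all 163, 42 had a noncoding RNA gene other than a tRNA, snRNA or snoRNA, a class not limited to long ones. The first was lncRNA:CR44676, 346 bp downstream, with 443 in replicate 1 and 276 in replicate 2. CG9663 at 940 bp had 358 and 295, so the 2 exchanged order between replicates. Stat92E, the transcription factor of the JAK/STAT pathway, had 387 and 234 at 372 bp in its 5' UTR. A peak of ph-p lay 455 bp downstream of a start, in a 5' UTR, with 347 and 230. The ph-p peak 498 bp upstream, higher in both replicates, was measured from a different start of this gene. Both summits lay inside the gene, so the 2 peaks do not flank 1 start. The rest were lncRNA:CR43337, lncRNA:CR44478, lncRNA:CR44619, CAP, Fili, l(2)k01209, CG43116 and lncRNA:CR44380, with pooled signals from 622 down to 476.

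Summits lay outside coding sequence almost throughout. Downstream, 4 of 163 summits (2.45%, 0.958 to 6.14%) were in a coding exon, which covers 41.5% of the downstream bases and 40.8% when bases are weighted to the distances of these peaks. Upstream, 2 of 486 (0.412%) were in a coding exon, against 7.67% of bases weighted in the same way. These upstream peaks, named after their values were seen, were at asRNA:CR46005 and lncRNA:CR45233. Downstream summits were in an intron in 48.5% (29.1% of bases), in a 5' UTR in 24.5% (13.0% of bases) and in another exon in 16.0% (7.25% of bases). Upstream summits were intergenic in 57.8% (46.1% of bases) and in an intron in 35.8% (29.9% of bases). Of the 486 upstream summits, 151 (31.1%, 27.1 to 35.3%) lay inside the span of their nearest gene. These were upstream of a start within that gene, as at px, ph-p, Lk6 and InR, and not in its 5' flanking DNA. In replicates 1 and 2, 1.70% and 1.80% of downstream summits were coding.

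Divergent starts were frequent among upstream peaks. Of the 486, 130 (26.7%, 23.0 to 30.9%) were also upstream of a start on the opposite strand within 1000 bp, against 8.72% of upstream bases and 14.2% of bases weighted to the distances of these peaks. The share was 26.1% in replicate 1 and 28.9% in replicate 2. The median gap between the paired starts was 388 bp (quartiles 285 and 678). Beyond Art3 and Chro, the pairs with the highest signal were CenG1A with mRpS23 (pooled signal 645), CG8788 with alc (626) and lncRNA:CR45593 with Ama (588). These pairs were chosen after their values were seen.

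Few starts had peaks on both sides. Of 629 starts, 10 did, and of 606 genes, 38 had at least 2 peaks. The start of lncRNA:CR44619 had peaks at 835 and 636 bp upstream (518 and 340) and 515 bp downstream (502). The peak at 835 bp had a matching summit in replicate 2 only. The upstream pair comes from intervals that overlap, and merging the peaks that overlap leaves 643 of 649. CG1888 had 833 at 220 bp upstream and 234 at 324 bp downstream. For l(2)k01209 the order was the opposite, with 490 at 760 bp downstream and 323 at 274 bp upstream. CG31635 had 428 downstream and 137 upstream, and CG42327 had 248 upstream and 193 downstream. A summit of the pooled list lay within 100 bp of the same start for 9.26% of upstream and 23.3% of downstream peaks.

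Within 100 bp of the summit the fork head motif was present at 47.9% of the 649 peaks (44.1 to 51.8%). The share was 47.7% upstream and 48.5% downstream, a difference of -0.73 percentage points (-9.53 to 8.03). It was 50.8% in replicate 1 and 46.5% in replicate 2. Flank windows here are windows of the same length, laid end to end over the same range of distances and outside pooled peaks. Their distances go in steps of a window length, so the weighting to distance below is no finer than that. Among flank windows the share with the motif was 23.7% of 102083. In windows at every annotated start it was 27.2%. Peaks in introns held it in 48.6%, intergenic peaks in 40.4% and core promoter peaks in 32.8%. Promoter-proximal peaks were rich in A and T, with a median GC content of 34.3% upstream and 38.3% downstream, against 42.3% at core promoters. This was not particular to them, as the median was 37.3% at intronic and 36.8% at intergenic peaks. In flank windows the median was 39.8% upstream and 46.8% downstream. When flank windows were weighted to the same side, distance and GC content, a comparison chosen after seeing the data, 36.6% of them held the motif, and the difference was 11.4 points (7.50 to 15.2). A match is a string of letters and not a measured contact.

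The match was most frequent at the summit itself. In the central bin of 40 bp, 14.6% of upstream peaks had a match (11.7 to 18.0%), against 34 and 24 of 486 in the bins 480 bp farther from the start and 480 bp nearer to it. The sequences printed above show single matches at ph-p and Art3 and paired matches at InR, RasGAP1 and CG31635. In the same 4 parts, from the highest signal, 52.4%, 52.4%, 42.7% and 42.2% of promoter-proximal peaks held the motif, and the intervals of these shares overlapped.

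**Figure D4:**
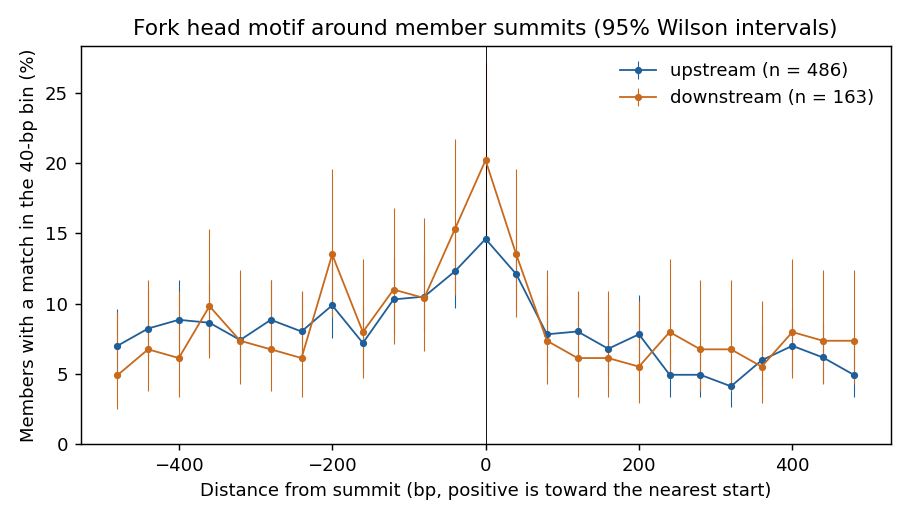
Share of 486 upstream and 163 downstream peaks with a fork head match in each 40-bp bin around the summit, positive distances toward the nearest start, with 95% Wilson intervals. Both lines peak in the central bin, at 14.6% for upstream and 20.2% for downstream peaks.

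In all, 27 motifs were searched, and a motif was called where the interval of the difference, widened by the Bonferroni rule for 27 comparisons, left out 0. Against flank windows 10 were called (37.0% of those tested), all higher at the peaks. Weighting flank windows to side, distance and GC left 8 calls (29.6%), again all higher, and 5 motifs were called both times. These were the fork head motif, its strict form GTAAACA, the GAGA factor motif and the 6-letter strings ACACTG and AAATAT. Both strings were picked from earlier results of these same peaks, so their calls restate that choice and are no independent evidence. The string ACACTG was held by 16.6% of peaks and 6.76% of weighted flank windows, but by 21.5% of core promoter peaks and 13.7% of windows at every start. The GAGA factor motif GAGAG, bound by the chromatin protein Trithorax-like, was held by 28.2% of peaks, 18.2% of weighted flank windows and 24.3% of windows at every start. Unlike the fork head motif, it was scarce at the summit itself. The central bin of 40 bp held it in 4.78% of peaks. In the bins 160 bp farther from the start and 160 bp nearer to it, 12.6% and 13.3% did. The calls for the TATA box string, the GATA factor, homeodomain, Twist and DREF motifs ended under the weighting. Those for the CTCF core, Brinker and CAGCTG motifs were made only under the weighting, and whether the 2 sets of differences differ was not tested.

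None of the 27 motifs was called between upstream and downstream peaks (0% called), between promoter-proximal and intronic peaks (0%) or between promoter-proximal and intergenic peaks (0%). An uncalled motif is not thereby shown to be equal. Before widening, the upstream minus downstream interval left out 0 for AAATAT (13.0 points, 4.15 to 21.5) and the TATA box string (11.9, 3.44 to 19.6), both higher upstream. It also did so for GTAAACA and the Grainyhead motif, both lower upstream. Some unwidened intervals against intronic and intergenic peaks left out 0 too. Against core promoter peaks 8 were called (29.6%). The fork head, homeodomain and GATA factor motifs and the string AAATAT were higher at promoter-proximal peaks, with a fork head difference of 15.1 points (9.18 to 20.9). The DREF, BEAF-32, M1BP and Ets motifs were lower. The DREF motif was held by 12 promoter-proximal peaks (1.85%) and 9.93% of core promoter peaks, and the motif of M1BP, a factor of housekeeping promoters, by 1 peak and 29 of 433 core promoter peaks. In replicates 1 and 2 the DREF motif was held by 1.69% and 1.10% of promoter-proximal peaks and 9.15% and 9.05% of core promoter peaks. The M1BP motif was held by 4 of 652 and 2 of 634 promoter-proximal peaks in these replicates. BEAF-32, a boundary protein whose short motif CGATA lies inside the DREF motif, had its motif in 26.2% and 41.3%. The GC content of these 2 classes differed as given above, and its part in these differences was not tested. At the starts themselves, GAGAG lay within 100 bp of 39.9% of the starts with an upstream peak and 38.1% of those with a downstream peak, against 24.3% of every start.

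**Figure D5:**
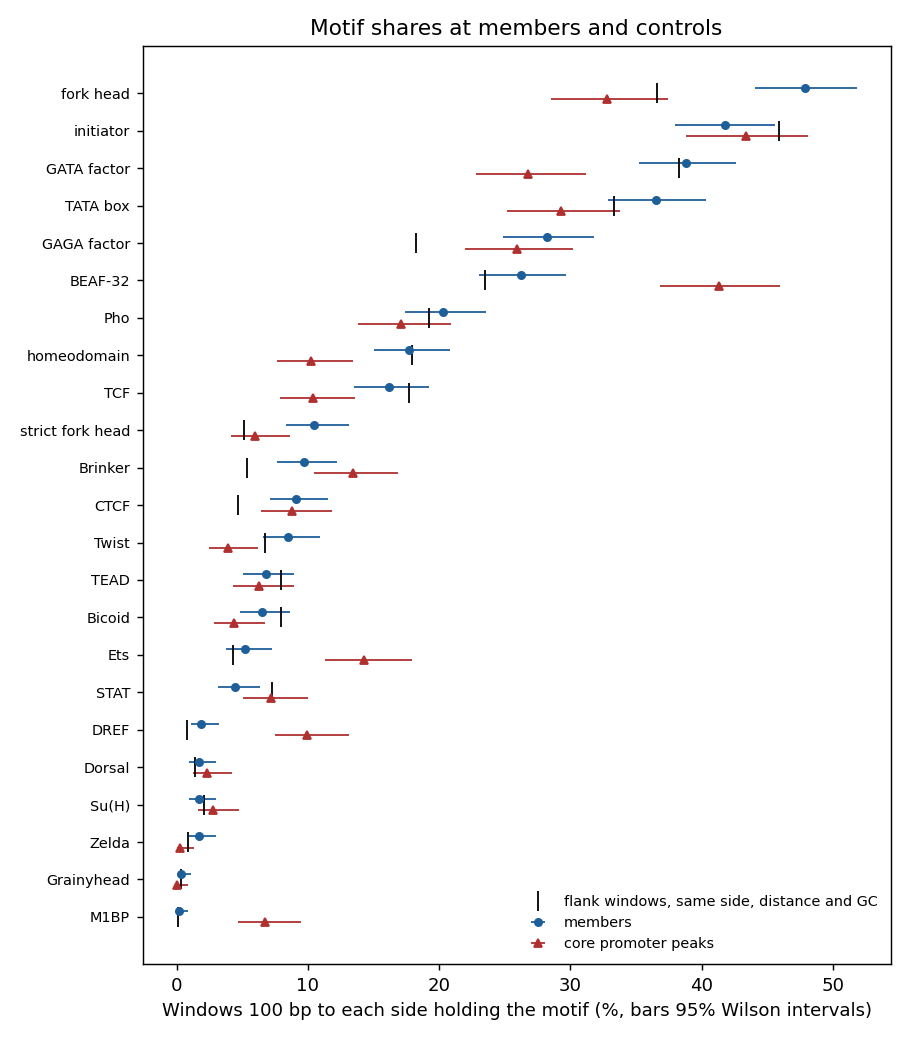
Share of windows, 100 bp to each side, that hold each motif at the 649 promoter-proximal peaks (blue, members) and 433 core promoter peaks (red), with 95% Wilson intervals, and in flank windows weighted to side, distance and GC content (black ticks); motifs named by their letters are left out. The fork head point of 47.9% stands right of its tick at 36.6%, and the DREF and M1BP points of core promoter peaks stand right of the blue ones.

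The nearest genes numbered 606, which is 3.34% of 18164 annotated genes, and 508 of them were protein-coding, 3.64% of 13945. Upstream peaks were nearest to 2.97% of protein-coding genes and downstream peaks to 0.789%. The nearest gene was protein-coding for 431 of 486 upstream and 113 of 163 downstream peaks, and an annotated noncoding RNA gene other than a tRNA, snRNA or snoRNA for 46 and 42. Shares of a gene list are to be read against these background values, and with lists this small no share is called particular to its list. The gene of fd102C itself had no promoter-proximal peak, and the nearest summit lay 10270 bp from the start of fd102C, at Sox102F.

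Most peaks at signalling genes were upstream, as among promoter-proximal peaks in general. In the EGF receptor pathway 4 of 18 genes had a peak, all upstream: stet, a rhomboid family protease, at 548 bp (signal 575); aos, a secreted inhibitor of the receptor, at 325 bp (200); spi, an activating ligand, at 296 bp (199); and pnt, an Ets factor, at 152 bp (158). Of 17 BMP pathway genes, 3 had upstream peaks: Dad, an inhibitory Smad (287), brk, a repressor of BMP targets (180), and Mad, a signal-transducing Smad (166). In the core Notch pathway 2 of 14 did: numb, an inhibitor of Notch, with 515 at 239 bp, and gro, a corepressor, with 214 at 181 bp. Of the E(spl) and Bearded families, which hold Notch targets, 5 of 15 genes had a peak. E(spl)mdelta-HLH (261), E(spl)m2-BFM (332) and E(spl)m7-HLH (399) had it upstream, and Tom (180) and E(spl)malpha-BFM (177) downstream. The FGF pathway had stumps, the adaptor of the receptor, with 286 at 381 bp upstream. Stat92E was the 1 gene of 10 in the JAK/STAT pathway, and fz, a Wnt receptor, the 1 of 17 in the Hedgehog and Wnt pathways, at 510 bp downstream with 163.

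Transcription factor lists followed. Of 8 SOX domain genes, 4 had a peak: Sox14 (505), Sox102F (202 upstream and 153 downstream), Sox21a (178) and Sox100B (163). Of 17 fork head domain genes, 3 had an upstream peak: fkh, a regulator of gut and salivary gland, with 366 at 231 bp, FoxK with 346 and CHES-1-like with 141. In the GATA list of 6 genes, which includes the GATA cofactor ush, grn had a downstream peak (256), and pnr (188) and ush (157 and 156) had upstream peaks. Among 14 genes of the dorsal ectoderm and amnioserosa, 4 had a peak, with Doc1 (195) and peb (129) beside pnr and ush. Mesoderm and muscle founder genes had 3 of 17, with tin, the heart regulator, at 397 and org-1 at 290 beside stumps. Single genes had a peak in the pair-rule (ftz, 134), gap and head gap (cnc, 126), Hox (lab, 133) and neuroectoderm (brk) lists, of 10, 12, 12 and 20 genes. In the tracheal list of 12 genes trh (151) and peb were present.

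Chromatin and maternal regulators included 5 of 26 Polycomb and trithorax group genes. Both polyhomeotic copies had peaks; ph-d, the neighbour of ph-p, had 336 at 788 bp upstream, and because the copies are similar in sequence, reads of ph-p and ph-d may be hard to separate, which was not tested. The remodelling ATPase brm had 255 at 125 bp upstream, Trl, which encodes the GAGA factor, 251 at 274 bp upstream, and kis 195 at 147 bp downstream. Chro was the 1 of 17 genes among insulator and architectural proteins, although its summit lay within 100 bp of a start in both replicates. Maternal and genome activation factors had 3 of 13: Trl, brat (185) and bcd, the anterior determinant, with 174 at 142 bp upstream. Adherens junction and cytoskeleton genes had crb and sdt (198), of 19.

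In the lists of housekeeping genes for ribosomes, translation and respiration, 1.19% to 4.40% had a promoter-proximal peak, around the background of 3.64%. Of 91 cytosolic ribosomal protein genes, 4 (4.40%) had one, all upstream: RpL34b (384), RpL32 (286), RpS20 (248) and RpLP2 (141), at 102 to 155 bp, while 50 of the 91 had a core promoter peak. Mitochondrial ribosomal protein genes had 3 of 73 (mRpL41 with 500, mRpS2 with 218, mRpL4 with 155; 4.11%), translation factors 2 of 54 (3.70%), with eIF5B at 139 and eIF2beta at 130, and the respiratory chain 1 of 84 (ND-ASHI with 136; 1.19%). Of 23 heat shock protein genes, 3 had an upstream peak between 113 and 155 bp: Hsp83 (325), Hsp27 (191) and Hsp26 (148). Small noncoding RNA genes had 15 of 601, led by tRNA:Gln-TTG-2-1 (587), and microRNA genes 1 of 260 (mir-9378 with 387). No gene had one among 32 proteasome, 20 cell cycle, 116 histone, 60 odorant receptor, 14 chorion and yolk protein and 17 muscle structure genes.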

How the data were processed

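ChIP-seq peak lists of 2 replicates (separate collection rests only on the word biological in the labels) were analysed. The authors' deposited lists give a signal value, a −log10 q-value (used to break rank ties) and a summit offset for each peak, in dm6 per the labels. Per the deposited notes, peaks were called on each replicate and pooled, against a control not analysed here. No aligner, caller or threshold is named in the sources used here, and depth is unknown. Starts came from Ensembl release 115 (18164 genes, 23581 start positions on 6 arms), and bases from the RefSeq assembly of the same release. The sequences shown were chosen from the 525 promoter-proximal peaks outside arm 2R. Scripts used Python 3.11.15, NumPy 2.4.6, pandas 2.3.3, SciPy 1.17.1 and Matplotlib 3.10.9, and were checked on simulated data.

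Motifs were matched on both strands. The fork head motif, RTAAAYA, contains its strict form, may overlap TATAAA or AAATAT, and ACACTG may overlap the M1BP motif. Other letters were GAGAG (GAGA factor), CGATA (BEAF-32), TATAAA (a core promoter element), GGCGCY (Brinker), CCGGAA (Ets), TAATTA (homeodomain), TAATCC (Bicoid), CATATG (Twist), CAGCTG (an E-box), CACGTG (another E-box), GGAATG (TEAD) and CAGGTAG (Zelda). The CTCF core, GATA factor, DREF, M1BP, Su(H), Grainyhead, Dorsal, TCF, STAT, Pho and initiator motifs are given by name alone. The 27 motifs were compared in 8 pairs of sets, with the widening within each pair alone.

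The peaks, motifs and 34 gene lists were chosen with earlier results of these data known, and ACACTG and AAATAT come from such results. Lists matched 1715 genes, 21 entries through older symbols, and 3 entries were not matched. Genes named are fd102C, those of the 12 highest peaks on each side, up to 4 per list, 5 starts with peaks on both sides and 3 at each edge, some of which are printed. A few windows of the same rule were passed over for UTR bases, and the next were shown.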

Additional observations from a re-analysis of the deposited data

How the results depend on the processing

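Of 48 alternatives over 10 results, 38 kept direction and call, stayed within 1.5 times a count, or stayed inside the 95% interval of a share or median, 7 of the 48 being chosen after seeing the data. The peaks numbered 634 to 652 with a replicate left out and 357 among the 1016 thresholded peaks with the highest signal, where the median signal was 264. The upstream share was 73.0 to 73.7% with a replicate left out, 78.9% with protein-coding starts and 81.8% within 500 bp. Peaks kept in class by both replicates were 72.3% when a shared summit meant 50 bp. The fork head excess over flank windows was 24.2 points, and 22.8 to 27.1 points with a replicate left out. It was smaller, at 12.1 points (8.23 to 15.9), with flank windows weighted to GC content, and 11.4 with side and distance added. Both weighted values kept direction and call and are counted among the 38, although the size of the excess fell. The difference between upstream and downstream ran from -1.28 to 0.573 with a replicate left out and was 2.48 within 250 bp, -2.68 within 50 bp and -3.29 with protein-coding starts. That between promoter-proximal and intronic peaks ran from -0.529 to 1.28 and was 3.51 within 250 bp and -5.08 within 50 bp. Neither was called in a setting tried. With GTAAACA in place of RTAAAYA, however, the unwidened interval of upstream minus downstream, -12.3 to -0.22, left out 0. Against core promoters the fork head difference was 16.1 to 18.3 with a replicate left out. It was 8.68 within 250 bp, where it was no longer called after widening, and the cause was not tested. Protein-coding genes numbered 498 to 514 with a replicate left out. No paired analysis was possible because the series holds 1 group. The number of peaks limits the precision of each share, and read depth could not be assessed.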
